A study of Drosophila melanogaster with 2 samples.

Results

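Upstream peaks at lone promoters were the binding sites of the CG32121-eGFP fusion protein that lay just ahead of a gene start with no partner gene starting back to back with it. A peak of the authors' conservative list was counted when its summit, the base of highest signal, was 1 to 500 bp upstream of the nearest protein-coding transcription start site (TSS), and when no other protein-coding gene started on the opposite strand within 500 bp upstream of that TSS. Of 7676 peaks, 1558 met both conditions (20.3%, Wilson 95% interval 19.4 to 21.2). Of the others, 712 summits lay at or downstream of a lone TSS within 500 bp, 626 lay at TSSs with an opposite partner, and 4780 were further than 500 bp from any protein-coding TSS. The 1558 peaks fell into 1485 separate regions and were assigned to 1493 TSSs of 1329 genes. Among all lone promoters, 10832 genes had 15151 lone TSSs, so 12.3% of such genes (1329) had at least 1 upstream peak.

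Chromatin immunoprecipitation with sequencing was carried out on whole pupae of Drosophila melanogaster, aged 2 days, of strain CG32121-GFP. The flies carried a transgene that expresses CG32121 fused to enhanced green fluorescent protein (eGFP), and chromatin was sonicated and pulled down with an antibody against GFP. Both samples had this same genotype, stage and treatment, were numbered as biological replicates 1 and 2, and came under 1 donor label, so they formed 1 group of 2. No input or untagged sample was analysed here, so no peak was set against a background library. The labels name neither the promoter that drives the transgene nor the number of pupae pooled, and the fusion protein was measured, not the untagged one. In whole pupae a lower signal from fewer bound cells and from weaker binding per cell cannot be told apart.

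A promoter is the stretch of DNA around a TSS on which RNA polymerase II and its general factors assemble. In flies, many compact housekeeping genes start back to back and share 1 upstream region, while lone promoters have that region to themselves and include many developmental and hormone-controlled genes. Core promoter sequences such as the TATA box, which sits a short way upstream of the TSS, and the initiator, which spans it, help to place the polymerase, and GAGA elements are bound by the BTB zinc-finger protein GAGA factor (Trl).

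The DNA under 8 strong peaks is shown first because its composition recurs in the comparisons that follow. Each line reaches 50 bases to either side of the summit, 5′ to 3′ on the strand of the gene, from the RefSeq genome in dm6 coordinates, and capitals mark matches on either strand to the sequences that were more frequent at summits than in flanks (TATAAA, then TATCGATA and also CATCNCTA, then GAGAGAG with the shorter GAGAG inside it, and lastly AAAAAA and the word ACAGTG). The Ugalt line has 79 bases because the part inside the transcribed exon was left out. All 8 were among the 25 strongest members.
Ugalt: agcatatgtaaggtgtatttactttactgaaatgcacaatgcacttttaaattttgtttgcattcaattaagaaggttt
CG14100: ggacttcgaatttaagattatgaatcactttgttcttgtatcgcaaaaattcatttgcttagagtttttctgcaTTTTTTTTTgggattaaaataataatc
CG18549: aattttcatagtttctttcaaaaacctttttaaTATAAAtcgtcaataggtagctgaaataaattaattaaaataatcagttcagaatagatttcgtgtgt
Syp: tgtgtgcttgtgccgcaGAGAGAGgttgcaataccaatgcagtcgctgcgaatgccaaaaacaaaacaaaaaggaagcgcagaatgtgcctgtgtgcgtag
ph-p: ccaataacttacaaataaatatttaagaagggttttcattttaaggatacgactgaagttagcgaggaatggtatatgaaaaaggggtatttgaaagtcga
Gapdh2: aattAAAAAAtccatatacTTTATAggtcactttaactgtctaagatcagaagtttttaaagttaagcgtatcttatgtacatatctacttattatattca
Hsp27: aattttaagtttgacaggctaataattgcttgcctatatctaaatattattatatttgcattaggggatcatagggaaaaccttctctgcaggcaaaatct
Btk: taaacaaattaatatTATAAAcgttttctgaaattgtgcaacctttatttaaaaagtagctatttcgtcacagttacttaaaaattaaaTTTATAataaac
The windows were chrX:2703853-2703931 on the minus strand, chr3L:19590561-19590661 on the minus strand, chr3R:12449121-12449221 on the plus strand, chr3R:20778617-20778717 on the plus strand, chrX:2137279-2137379 on the minus strand, chrX:15867932-15868032 on the plus strand, chr3L:9383852-9383952 on the plus strand and chr2L:8277810-8277910 on the minus strand. The Ensembl annotation placed no exon in any of them. Their GC content ran from 19.8% at Btk to 49.5% at Syp, and Syp was the only one of these 8 with a GAGAGAG. Ugalt, ph-p and Hsp27 had none of the 7 marked sequences.

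Further lines show members with no exon in the bases printed, for TATCGATA (the DNA replication-related element), CATCNCTA (the motif 7 core of fly promoters) and ACAGTG. Only that sequence is in capitals. Last comes the strongest such member with GAGAGAG and ACAGTG beside the summit and neither within 50 bp of it, shown over 297 bases; it was chosen after its values were seen.
vib: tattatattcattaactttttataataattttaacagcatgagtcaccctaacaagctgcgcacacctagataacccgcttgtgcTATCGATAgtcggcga
tin: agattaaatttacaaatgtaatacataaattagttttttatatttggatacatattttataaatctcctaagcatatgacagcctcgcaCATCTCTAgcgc
pod1: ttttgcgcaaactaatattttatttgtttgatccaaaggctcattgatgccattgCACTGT
Rtnl1: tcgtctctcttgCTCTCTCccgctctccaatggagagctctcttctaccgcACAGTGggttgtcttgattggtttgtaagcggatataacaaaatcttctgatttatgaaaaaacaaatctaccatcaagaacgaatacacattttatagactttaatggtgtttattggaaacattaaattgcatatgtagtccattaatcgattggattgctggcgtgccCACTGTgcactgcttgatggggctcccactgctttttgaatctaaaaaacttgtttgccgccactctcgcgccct
The windows were chr3R:19226693-19226793 (minus strand), chr3R:21378733-21378833 (plus strand), chrX:6804874-6804934 (plus strand) and chr2L:4997506-4997802 (minus strand). The vib peak had a signal of 133.0, the tin peak 486.4, the pod1 peak 652.9 and the Rtnl1 peak 1010. At Rtnl1, which encodes a reticulon that shapes the endoplasmic reticulum, the GAGAGAG match was centred 133 bp from the summit and the ACAGTG matches 76 and 95 bp from it.

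The strongest member was at Ugalt, which encodes a UDP-galactose transporter: its summit was 29 bp upstream of the TSS and ranked second among all 7676 peaks. The authors' signal value there was 2789 in the list made from both replicates, 937.7 in replicate 1 and 1862 in replicate 2. CG14100 had 2061 in the joint list, with 692.7 and 1386 in replicates 1 and 2. At Dll, which encodes a homeodomain protein of the distal appendages, the signal was 1829, with 737.1 and 1084. Dll stood apart from the other strong peaks in composition, with 69.3% GC within 50 bp of the summit.

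The 25 strongest members had signals of 1043 to 2789 (median 1355) and lay 29 to 474 bp upstream (median 163). All 25 were in both replicates' own thresholded lists, and in all 25 the signal was higher in replicate 2, by 1.47 to 2.42 times (median 1.93). Their GC content was 17.8 to 69.3% with a median of 25.7%. TATAAA was within 50 bp of the summit in 10 of 25, a run of 6 A on either strand in 10, GAGAGAG in 1 and none of the 20 sequences searched in 7. By function they were mixed. They included the Polycomb group gene ph-p (1563), the lipid phosphatase gene Lpin (1482), the ribosome maturation factor gene eIF6 (1411), the glycolytic enzyme gene Gapdh2 (1369), the small heat shock protein gene Hsp27 (1340), the tyrosine kinase gene Btk (1255), the Sox-family transcription factor gene Sox14 (1070) and papi (1052), whose product acts in the piRNA pathway of the germ line.

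Over all 1558 members the joint signal had a median of 132, with quartiles of 93.2 and 216 and a range of 2.20 to 2789. The median was 98.7 for the 712 peaks downstream at lone promoters, 137 for the 626 at divergent promoters and 122 for all peaks. The members as a group were thus near the whole list in strength, above the downstream peaks and close to the divergent ones. Of the members, 133 (8.54%, Wilson 7.25 to 10) had a q value above 0.05 in the joint list, with signals of 2.20 to 70.7, and 99 of those shared a merged region with another peak. Over the whole list it was 755 of 7676 peaks. The values of the 133 members are included below unless stated.

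Replicate 2 gave the higher values almost throughout. Within 200 bp of the summit, 1482 members had a summit in both replicates' ranked lists, and 1429 of these (96.4%) had the higher signal in replicate 2. The median signal was 49.5 in replicate 1 (quartiles 36.2 and 78.8, n = 1513) and 88.3 in replicate 2 (61.5 and 146, n = 1513), and the median ratio was 1.77. The order of the peaks was shared between the replicates, with Spearman's rho at 0.81 over the 1482 members and Pearson's r of their log10 values at 0.91. Both are descriptions across peaks of 2 libraries. The conservative list was thresholded by irreproducible discovery rate, a measure of agreement between replicates. Some shared order was thus set by the selection, and the 2 values are no separate support. The authors' scale of the signal and the depth of the libraries were not stated, so the ratio of 1.77 cannot be read as a difference in binding.

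**Figure D1:**
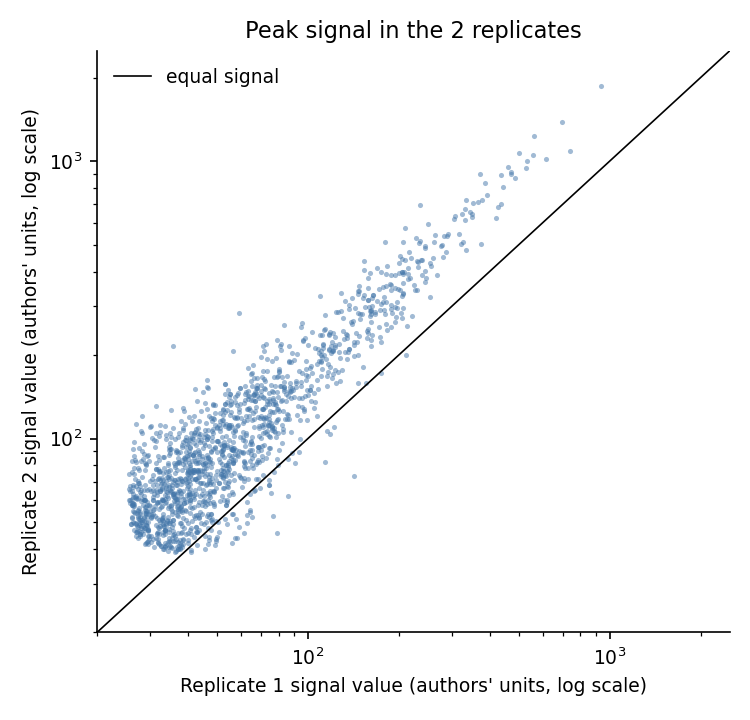
Signal value of each upstream peak at a lone promoter in replicate 1 (horizontal axis) and replicate 2 (vertical axis), in the authors' units on log scales. Each point is 1 of the 1482 peaks with a summit within 200 bp in both replicates; 1429 lie above the line of equal signal.

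Of the 1558 members, 900 overlapped a peak of replicate 1's own thresholded list (57.8%, Wilson 55.3 to 60.2) and 1274 a peak of replicate 2's (81.8%, 79.8 to 83.6). For all 7676 peaks the shares were 55.1% and 77.5%. Both own lists held 846 members (54.3%) and neither held 230 (14.8%). Recovery followed strength. In quintiles of the members by joint signal (groups of 311 or 312), from weakest to strongest, 18.3, 23.2, 57.1, 91.3 and 99.0% were in replicate 1's list, and 44.2, 72.7, 93.6, 98.4 and 100% in replicate 2's. The joint signal and the own lists come from the same libraries, so this order describes the lists and is no separate support.

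Summits were densest between 100 and 200 bp upstream of the TSS. The median was at −162 bp relative to the TSS, with quartiles of −252 and −90.2 bp. The 50 bp bins whose outer limits lay 150 and 200 bp upstream held 273 and 270 members, the last 50 bp before the TSS held 208, and the farthest bin held 50. The median signal rose from 103 in the 50 bp next to the TSS to 170 in the bin reaching 250 bp upstream and was 144 in the farthest bin. Mean GC content was 48.1% next to the TSS and 35.7% in the bin reaching 250 bp. Farther out the signal and GC content did not move together. The bin reaching 400 bp had 34.6% GC with a median signal of 128, and the farthest bin had 34.1% GC.

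**Figure D2:**
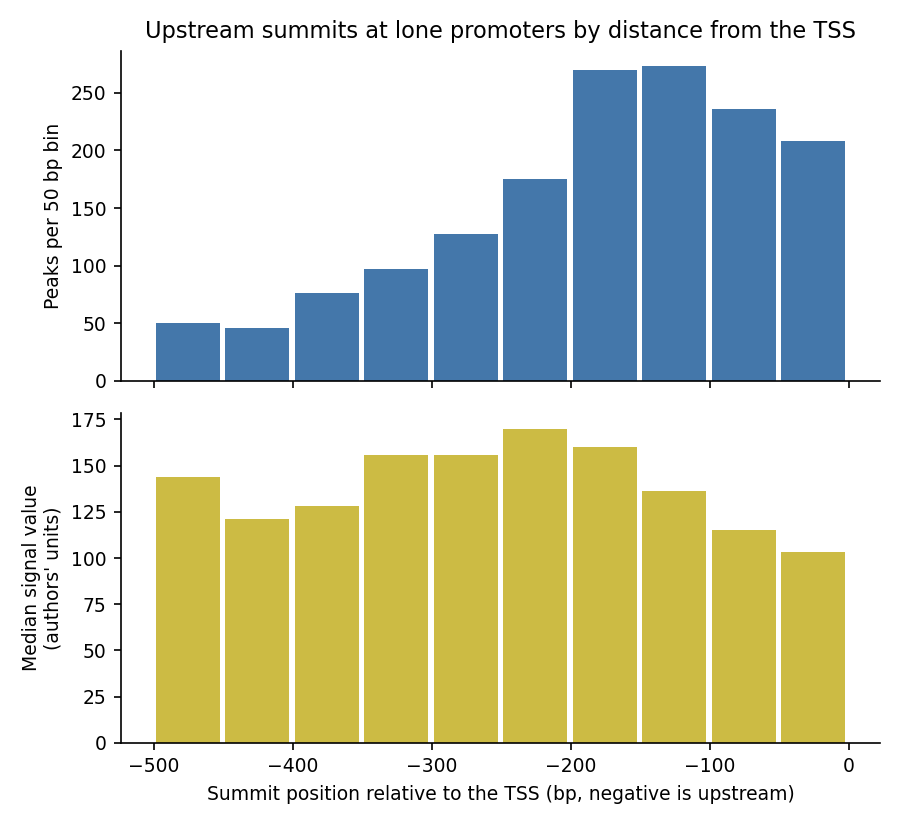
Number of upstream peaks (upper bars) and their median signal in the authors' units (lower bars) in 50 bp bins of summit position relative to the TSS. The bins whose outer limits are 200 and 150 bp upstream hold 270 and 273 peaks, and the median signal is lowest, 103, in the bin next to the TSS.

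The members nearest the limits of the range were CG6891, 500 bp upstream with a signal of 83.85, CG6959, 496 bp upstream with 100.8, and l(3)neo38 and alc, both 1 bp upstream, with 126.6 and 98.20. Just outside lay peaks 501 bp upstream of a Btk TSS (242.9) and 502 bp upstream of CG10479 (199.4), and peaks exactly at the TSSs of Polr2F (106.8) and twz (98.69).

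Strong members sat in a narrow trough of low GC content. Within 50 bp of the summit the mean GC content fell from 43.0% ± 1.29 in the weakest quintile (95% interval over 312 peaks) through 42.4, 40.9 and 36.9% to 31.2% ± 1.06 in the strongest. The strongest quintile was 11.9 percentage points lower than the weakest (± 1.67). In the strongest quintile the profile dropped to 30.1% at 20 and 40 bp on the outer side of the summit, and stood at 42.9% at 120 bp on that side and 48.2% at 120 bp on the gene side. In the weakest quintile no such trough was seen, and the GC content was 43.9% at the summit, 39.5% at 120 bp outside and 44.1% at 120 bp towards the gene.

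**Figure D3:**
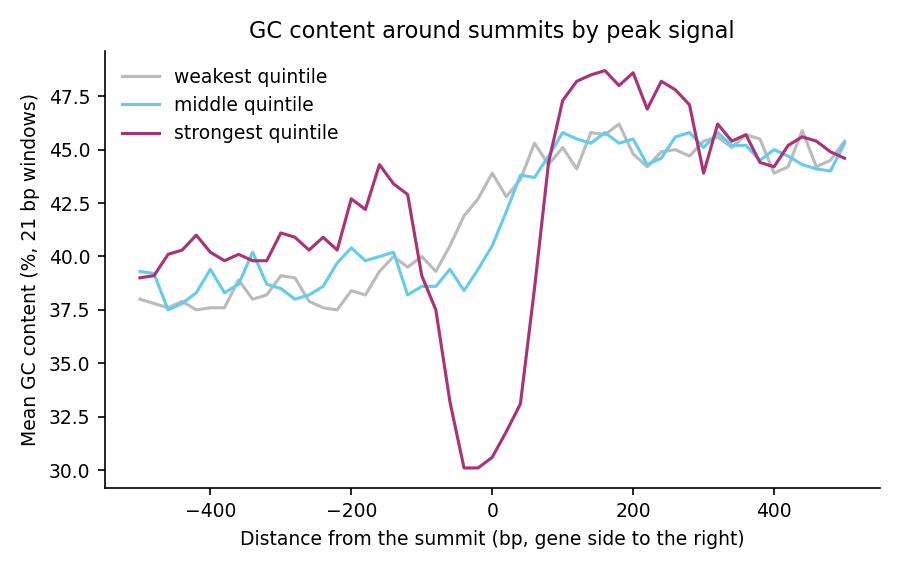
Mean GC content in 21 bp windows against distance from the summit, with the gene side to the right, for the weakest, middle and strongest quintiles of upstream peaks by joint signal. The strongest quintile drops to 30.1% beside the summit and rises to 48.2% at 120 bp on the gene side.

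The fall with strength was seen in each replicate's own list, with quintiles made from that replicate's signal alone: from 42.0 to 30.1% in replicate 1 (964 peaks) and from 43.9 to 31.3% in replicate 2 (1498 peaks). It was 43.5 to 30.8% without the 133 members of q above 0.05. Against flanks the answer depended on the side. Summits were 3.20 percentage points lower in GC than windows 500 bp away on a side drawn at random (± 0.837, n = 1558). Against the flank away from the gene alone the difference was 0.0597 (interval −0.792 to 0.912). Divided by strength, the strongest quintile was 8.04 points below that outer flank (± 1.58) and the weakest 4.75 points above it (± 1.88).

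Lone promoters with no summit of the conservative list within 1000 bp are called unbound here, though some may hold a peak of the authors' other lists. The members as a whole were close to the unbound promoters in GC content. They had 38.9% ± 0.609 at summits, against 38.3% ± 0.198 in windows 162 bp upstream of the 11659 unbound TSSs. Peaks downstream at lone promoters had 45.3% ± 0.716 and those at divergent promoters 33.6% ± 0.867, so the members lay between them. The fall with strength was not particular to the members. In quintiles by their own signal, divergent peaks went from 39.5% in the weakest to 26.7% in the strongest. Downstream peaks went from 45.2 to 40.6%, and peaks over 500 bp from a protein-coding TSS from 42.3 to 31.8%. How far GC content affects the recovery of fragments in these libraries was not tested.

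Of 20 sequences searched on both strands within 50 bp of the summit, 7 (35.0%) were more frequent at summits than in the flanks and 1 (5%) was less frequent (exact binomial test on members with a match on 1 side only, two-sided, Benjamini-Hochberg adjusted over the 20). The 20 were chosen with earlier results of these data known, so their p-values are no separate support. GAGAGAG was in 6.48% of summits and 1.99% of flanks (exact test, adjusted p = 3.71e-09). GAGAG, which every GAGAGAG contains, was in 20.7 and 12.8% (5.02e-08). ACAGTG was in 7.64 and 4.24% (0.000273) and a run of 6 A on either strand in 28.2 and 20.2% (1.26e-06). These 4 also passed when the flank was always taken on the side away from the gene.

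TATAAA was in 17.6% of summits and 11.2% of flanks (exact test, adjusted p = 2.67e-06), but passed no longer against the outer flank alone (0.505). TATCGATA, bound by the promoter factor DREF, was in 1.16 and 0.193% (0.00426), and CATCNCTA in 1.67 and 0.513% (0.00734). Both were lost against the outer flank, with adjusted p of 0.144 and 0.208, and in replicate 1's own list, with 0.243 and 0.780. Over all alternatives their adjusted p reached 0.243 and 0.947. AGGTCA, a sequence bound by nuclear receptors, was the sequence that was less frequent, in 1.16% of summits and 3.02% of flanks (0.00141; 0.0578 against the outer flank, 0.180 in replicate 1's own list and 0.217 in replicate 2's). The other 12 did not pass, with adjusted p of 0.0686 to 0.839 (exact test). They were, each with its share of unbound promoters in brackets, the initiator TCAGTT (6.68%), the motif 1 core GGTCACAC (0.283%), CAGCTG (4.21%), the CA repeat CACACAC (3.21%), the GATA site AGATAA (7.38%), the Zelda site CAGGTA (2.33%), the Pleiohomeotic core GCCAT (16.1%), the BEAF-32 core CGATA, which every TATCGATA contains (13.3%), the heat shock unit GAANNTTC (2.98%), the E-box CACGTG (1.17%), TGACGTCA (0.189%) and the AP-1 site TGAGTCA (0.961%). Of these, GGTCACAC came nearest among the more frequent, in 0.899% of summits and 0.257% of flanks (exact test, adjusted p = 0.0686). These p-values count peaks, and peaks of the same 2 libraries are no substitute for replicate animals.

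Without that list of chosen sequences, 2080 words of 6 bases were compared in the same way. More frequent at summits were 92 (4.42%) and less frequent 114 (5.48%). The first was AGAGAG, in 12.5% of summits and 4.17% of flanks (exact test, adjusted p = 2.59e-14). Among the 92, 31 held only A and T, 20 held GAG or CTC and 41 held neither. Of the 114 words that were less frequent, 61 had 4 or more G or C. How many of all 2080 words are of each kind was not counted, so these numbers show no excess of any kind of word. Summits also differed from these flanks in GC content, and its part in the words called was not tested. In all 9.90% of the words passed, and this share depended on the flank: it was 1.73% against the flank away from the gene and 26.1% against the flank on the side of the gene.

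Unbound lone promoters were read in 1 window each, at the members' median distance of 162 bp and not at each member's own. Of the 20 sequences, 8 were more and 2 less frequent at member summits than there, beyond the interval of the difference. GAGAGAG was 3.64 percentage points more frequent at member summits (Newcombe 95% interval 2.47 to 5; 2.85% of unbound promoters), ACAGTG 3.94 points (2.67 to 5.4; 3.70%) and the run of 6 A 6.28 points (3.98 to 8.69; 22.0%). GAGAG was 6.94 points more frequent (4.91 to 9.11), CAGCTG 1.24 (0.154 to 2.53), CATCNCTA 1.05 (0.5 to 1.83), GGTCACAC 0.616 (0.235 to 1.23) and TATCGATA 0.529 (0.0766 to 1.20). GCCAT differed by −2.07 (−3.84 to −0.146) and AGGTCA by −1.16 (−1.67 to −0.449). TATAAA did not differ beyond its interval, with 17.6% of members and 16.8% of unbound promoters (difference 0.767, −1.17 to 2.85). The GAGA element also set the members apart from the other promoter peaks, being 5.36 points more frequent than at divergent promoters (3.74 to 6.82) and 3.39 more than downstream of lone TSSs (1.49 to 5.08). TATAAA was 9.44 points more frequent than downstream (6.56 to 12.1) and differed by −6.85 from divergent promoters (−10.8 to −3.09). TATCGATA, in 3.99% of divergent peaks, was less frequent at the members (difference −2.84, −4.72 to −1.40).

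Which sequences lay under the summit changed with strength. TATAAA was in 12.5% of the weakest quintile and 27.9% of the strongest (difference 15.4 points, 9.14 to 21.5). GAGAGAG went from 7.05 to 1.92% (−5.13, −8.68 to −1.90), GAGAG from 22.4 to 10.6% (−11.9, −17.6 to −6.07) and the E-box CAGCTG from 9.62 to 1.60% (−8.01, −11.9 to −4.52). The GAGA element of strong members lay to the side. Between 51 and 200 bp from the summit it was found in 30.4% of the strongest quintile (95 of 312) and 15.1% of the weakest (47 of 312), a difference of 15.4 points (8.85 to 21.8). The difference lay in the outer part of that range. From 51 to 100 bp the shares were 8.97 and 9.62%, in the 50 bp ending at 150 bp 14.1 and 4.17%, and in those ending at 200 bp 14.1 and 4.49%. ACAGTG was found between 51 and 200 bp in 33.0% and 16.3% (16.7, 9.95 to 23.2), with 16.0 against 5.13% from 51 to 100 bp, 16.0 against 6.41% in the next 50 bp and 8.01 against 5.13% in the last. Rtnl1, printed above, shows both.

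**Figure D4:**
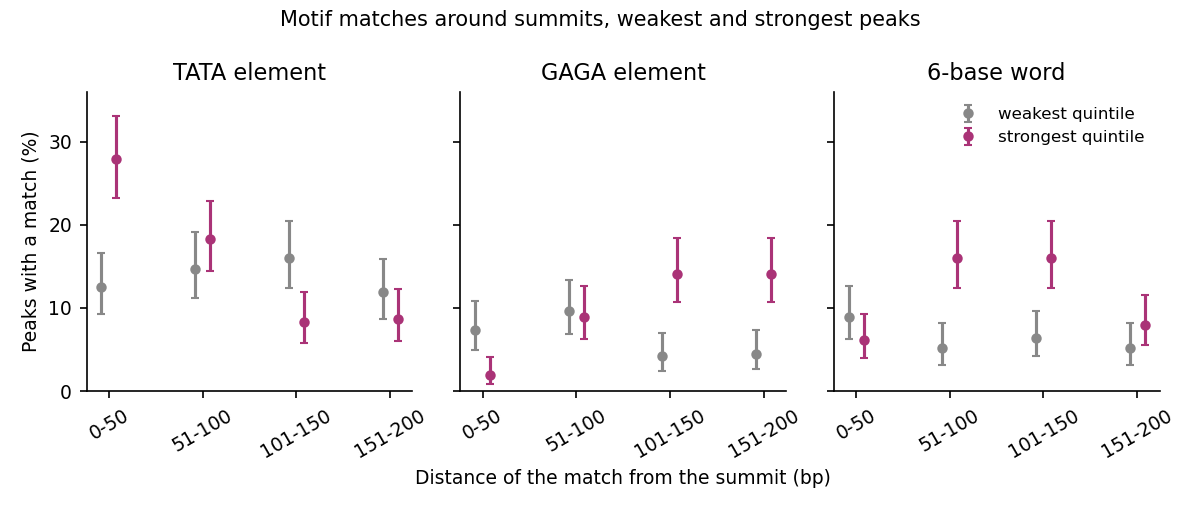
Share of upstream peaks with a match, on either strand, to the same 3 sequences as in the text (left to right: the TATA element, the longer GAGA element and the 6-base word ACAGTG) by distance of the centre of the match from the summit, matches on both sides pooled, for the weakest and strongest quintiles by joint signal. Bars are Wilson 95% intervals over 312 peaks each; in the strongest quintile the GAGA element is in 1.92% within 50 bp and 14.1% in the ring ending at 150 bp.

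Pooled over 51 to 200 bp, the differences had the same direction in each replicate's own list by its own signal. In replicate 1 the GAGA element 51 to 200 bp from the summit was in 34.7% of the strongest and 18.7% of the weakest quintile (193 peaks each; difference 16.1, 7.26 to 24.5), and in replicate 2 in 30 and 17.7% (300 peaks each; 12.3, 5.53 to 19). For ACAGTG the differences were 13.0 (4.19 to 21.5) and 13.7 (6.65 to 20.5). GC content moved with the same quintiles. So did summit position, with a median of −195 bp in the strongest quintile of members and −146 bp in the weakest. GAGA elements were densest 51 to 100 bp upstream of bound TSSs, at 3.87 per kb. The parts of GC content and of summit position in these differences were not tested.

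Looked at from the TSS instead of the summit, bound lone promoters were poor in TATA boxes and rich in GAGA elements. TATAAA on the gene's strand at 45 to 15 bp upstream was found at 4.02% of the 1493 bound TSSs and 10% of the 11659 unbound ones (difference −5.98, −7.03 to −4.74). Of the 274 members with TATAAA near the summit, 13 (4.74%) had it on the gene's strand starting 45 to 20 bp upstream of the TSS. Most of the matches near summits were thus not placed as a TATA box. Summit position limited this share: the median summit lay 162 bp upstream, and matches had to lie within 50 bp of the summit. The initiator core TCAGT, from 5 bp before to 10 bp after the TSS, was at 22.0% of bound and 13.3% of unbound TSSs (8.62, 6.50 to 10.9).

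GAGAGAG between 250 bp upstream and 50 bp downstream was at 20.6% of bound TSSs (308) and 6.95% of unbound ones (13.7, 11.6 to 15.9). By peak signal its share went from 17.1% in the weakest quintile to 24.4% in the strongest (7.36, 0.852 to 13.8). ACAGTG was at 20.7 and 11.7% (9.01, 6.95 to 11.2), from 16.4% at the weakest quintile of peaks to 28.4% at the strongest. CAGCTG was at 19.4 and 14.8% (4.67, 2.64 to 6.85). With 1 TSS per gene the GAGA element was at 19.3% of 1329 bound and 5.44% of 8384 unbound genes, and the TATA box at 4.29 and 11.5%. In the other lists and windows tried, the GAGA difference stayed between 12.6 and 15.9 points and the TATA difference between −6.45 and −5.36. TATCGATA did not differ beyond its interval (−1.01, −1.97 to 0.169).

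Bound lone TSSs more often belonged to genes with several starts. At 61.8% of the 1493 bound TSSs the gene had 2 or more TSSs, against 43.7% of unbound ones (18.1 points, 15.5 to 20.7). TSSs over 500 bp inside their own gene made up 36.2% of bound and 19.8% of unbound (16.5, 13.9 to 19). TSSs inside another protein-coding gene made up 11.5 and 18.4% (−6.95, −8.63 to −5.10). The upstream neighbour was on the same strand at 48.2 and 47.9% (0.289, −2.40 to 2.98), a difference within its interval. Another peak summit lay in the body of 41.8% of the 1329 bound genes and 12.6% of the 9503 others with a lone TSS. Their median lengths also differed, at 6391 and 2069 bp, and the part of gene length was not tested.

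Of the 1329 genes, 1145 had 1 member and 184 had 2 or more. The most were 6, at mamo, which encodes a BTB zinc-finger transcription factor and spans 144412 bp of X with 5 TSSs. Its peaks lay in 4 separate regions, and their signals ran from 72.06 to 331.0. The peak of 331.0 was 105 bp upstream of its TSS, with 132.5 in replicate 1 and 204.3 in replicate 2. SNF4Agamma, the gamma subunit gene of AMP-activated kinase, had 5 peaks with signals of 95.66 to 373.9. Svil, a supervillin gene, had 5 with 4.790 to 250.5. Ptpmeg2, a tyrosine phosphatase gene, had 4 with 195.0 to 631.6, and Rtnl1 had 4 with 91.07 to 1010. Some of these peaks shared a TSS: at Svil those of 4.790 and 89.04, at SNF4Agamma those of 95.66 and 127.8, and at mamo those of 72.06 and 164.9 and those of 161.8 and 331.0.

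The share of lone TSSs with a member was similar on the large arms, from 9% on 2L (Wilson 8 to 10.1) to 11.1% on X (9.92 to 12.3). On chromosome 4 it was 6 of 126 (4.76%, 2.20 to 10).

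Genes were then grouped by function in 21 lists and read against the 12.3% of all genes with a lone TSS that had a member. In 7 lists the Wilson interval lay above that share and in 3 below it. These intervals describe counts of genes and are not adjusted for the number of lists. The lists also differed in the number of lone TSSs per gene, which was 1.40 over all genes, and per TSS the share over all genes was 9.85%.

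Glycolysis had the highest share, with 7 of its 11 genes with a lone TSS (63.6%, 35.4 to 84.8). Per lone TSS it was 29.2% (14.9 to 49.2), with 2.18 per gene. Gapdh2 led with 469.2 in replicate 1 and 897.8 in replicate 2. The enolase gene Eno had 229.0 and 342.7, the lactate dehydrogenase gene Ldh 194.7 and 262.6, and the hexokinase gene Hex-A 134.4 and 193.5. At these 4 the summit was 163 to 224 bp upstream and the GC content 18.8 to 23.8%. The 3 weaker members had more GC, with 47.5% at the phosphoglycerate kinase gene Pgk (46.66 and 152.5), 44.6% at the pyruvate kinase gene PyK (68.86 and 82.32) and 39.6% at the aldolase gene Ald1 (30.22 and 42.21).

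Of the ecdysone response genes, which carry out the hormone programme of metamorphosis, 13 of 26 had a member (50%, 32.1 to 67.9). Per lone TSS the share was 27.1% (18.1 to 38.5), with 2.69 per gene. The transporter gene E23 had 334.9 in replicate 1 and 477.4 in replicate 2, and tai, a coactivator of the ecdysone receptor, had 135.6 and 204.9. Eip93F, a transcription factor of late metamorphosis, had 105.2 and 212.9. The receptor gene EcR had 3 members, the strongest with 64.37 and 83.04. Ldh, also in this list under an older name, was described above, and Blimp-1 had no summit within 1000 bp of a lone TSS.

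Among genes of Notch, Wnt, Hedgehog, Dpp and EGFR signalling, 20 of 40 had a member (50%, 35.2 to 64.8; 33.3% per lone TSS, 23.9 to 44.4). The corepressor gene gro had 232.5 and 434.7 in replicates 1 and 2. The kinase gene sgg had 153.4 and 406.7, numb, a Notch antagonist, 164.4 and 329.1, and nkd, a Wnt antagonist, 123.3 and 216.5. All 4 strongest had a GC content of 29.7 to 32.7%. Weaker members were mixed, with 65.3% at mam (joint signal 211.4), 25.7% at N (124.0) and 59.4% at the ligand gene wg (105.1). Axn and Dad had no summit within 1000 bp.

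Heat shock and chaperone genes had members at 8 of 21 (38.1%, 20.8 to 59.1). Besides Hsp27 they were led by Hsp26, with 159.5 and 297.7, and Hsp83, with 93.15 and 174.9. Hsp22 and Hsc70-4 counted with joint signals of 21.38 and 18.86. At Hsp22 the replicate summits within 200 bp had 109.2 and 202.6, far above the joint value of that row. Cell cycle genes had 6 of 20 (30%, 14.5 to 51.9), BTB-domain factors 5 of 17 (29.4%, 13.3 to 53.1) and cytoplasmic ribosomal proteins 15 of 60 (25%, 15.8 to 37.2). The interval of the cell cycle list held the background in both replicates' own lists (13.1 points above the background in replicate 2's, −0.723 to 35; 7.31 in replicate 1's, −2.45 to 28.4). So did that of the BTB-domain list with an IDR limit of 0.001 (4.08, −4.39 to 26.7) or a window of 250 bp (13.6, −0.397 to 37.3), and that of the heat shock list with the same IDR limit (11.4, −0.0134 to 32.3). Per lone TSS the BTB-domain share was 13.7% (6.81 to 25.7) and the cell cycle share 15.8% (7.44 to 30.4), both with intervals that hold 9.85%. The BTB-domain list held lola, with 135.0 and 237.0, and Trl, which encodes GAGA factor, with 53.10 and 51.22. The annotated CG32121 gene itself had a lone TSS with no summit within 1000 bp.

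Ribosomal protein members were of modest strength, from 14.01 at RpL37-1 to 156.0 at RpL23A, with a median of 118. In replicate 1's own list their share was 1.02 points below that list's background (interval −5.07 to 8.24), and in replicate 2's it was 19.8 above. With a global IDR limit of 0.001 it was 7.32 above (0.416 to 18.4). The lists below 12.3% were cuticle proteins (4 of 118, 3.39%, 1.33 to 8.39), the mitochondrial respiratory chain (1 of 54, 1.85%, 0.328 to 9.77) and chemosensory receptors (1 of 164, 0.610%, 0.108 to 3.37). With an IDR limit of 0.001 the interval of the respiratory chain held the background (difference −5.83, −7.35 to 2.09). The respiratory chain gene was ND-ASHI, a complex I subunit gene, with 187.8 and 387.3, and the receptor gene was Ir67c, with 27.32 and 68.93. In the list of RNA polymerase and splicing genes the 1 of 22 was Prps, a phosphoribosyl pyrophosphate synthetase gene that matched a name pattern and is no splicing gene.

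**Figure D5:**
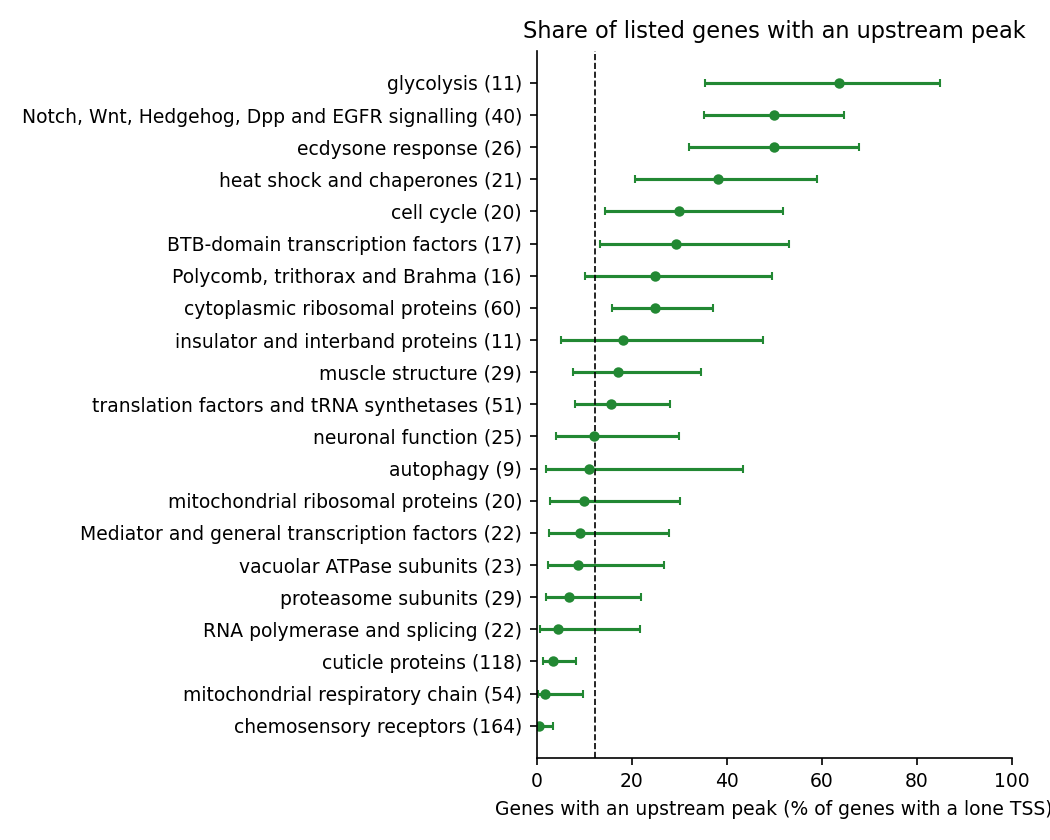
Share of genes with a lone TSS that had an upstream peak, for 21 gene lists, with the number of such genes in brackets. Points are percentages, bars are Wilson 95% intervals, and the dashed line is the 12.3% of all 10832 genes; glycolysis is highest at 63.6% and chemosensory receptors lowest at 0.610%.

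The remaining 11 lists had intervals that included 12.3%. The highest were Polycomb, trithorax and Brahma genes with 4 of 16 (25%, 10.2 to 49.5), insulator and interband proteins with 2 of 11 (18.2%, 5.14 to 47.7) and muscle structure genes with 5 of 29 (17.2%, 7.60 to 34.5). Mitochondrial ribosomal proteins had 2 of 20, among them mRpL41, whose peak of 1607 was the sixth strongest member, with 555.4 in replicate 1 and 1056 in replicate 2. Neuronal function genes had 3 of 25 (12%, 4.17 to 30). All lists together held 110 genes with a member among 782 with a lone TSS, beside 1329 of 10832 (12.3%) over all genes. The lists held only 782 of those 10832 genes. That most of the 1329 bound genes were in none of them therefore says nothing about the members.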

How the data were processed

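ChIP-seq of CG32121-eGFP was carried out in 1 group of 2 biological replicates, per the labels. The files the authors deposited were peak lists in dm6, ranked or thresholded by irreproducible discovery rate (IDR), with a signal value per peak of unstated scale. The deposited lists also give −log10 q values and, in the ranked lists, −log10 IDR values. Aligner and peak caller, with versions: not given in the sources used here. Read depth is unknown. Per the deposited notes the thresholded lists drew on a further input whose content is not described.

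Summits were assigned to TSSs of the Ensembl annotation supplied with the reference, and bases were read from the RefSeq genome, whose arm lengths hold every peak. Shares have Wilson intervals, differences Newcombe intervals and GC differences normal intervals. They cover counting error over peaks or genes only. Peaks share the 2 libraries, so their p-values do not measure the spread between animals. Motif tests were exact binomial tests with Benjamini-Hochberg adjustment, tested on simulated data, in Python 3.11.15 with numpy 2.4.6, pandas 2.3.3 and scipy 1.17.1. The simulated summits and flanks were given the same base composition, that of the flanks. The simulation therefore did not cover the GC difference between real summits and flanks. Replicate signals are those of the nearest summit within 200 bp in each replicate's ranked list.

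Genes named were those of the 25 strongest members, the most strongly bound and first unbound genes of each list, those with most members and those at the limits of the window. A few further members of the lists were also named. Members, lists and motifs were chosen with earlier results of these data known. Other lists, windows, flanks, an IDR limit and a q limit were tried. 14 symbols were updated through synonyms and 5 were not matched.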

Additional observations from a re-analysis of the deposited data

How the results depend on the processing

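No paired comparison of samples was possible because there was 1 group. Across 131 repeats of the main results under other lists, windows, flanks and limits, 107 stayed within 1.5 times a count, within the interval of a value, or on the same side of the threshold. The limit on q above 0.05 and the strength comparisons were added after the data were seen. Leaving out a replicate, which means using the other's own list, gave 964 to 1498 members against 1558, 833 to 1290 genes against 1329, a median position of −178 to −159 bp and 4.86 to 7.36% of 6-base words called against 9.90%. A global IDR limit of 0.001 left 933 members at 832 genes, with 86.3 and 97.9% in the own lists of replicates 1 and 2, a replicate ratio of 1.80, a median position of −176 bp and 5 motifs. The other thresholded list gave 53.9% in replicate 1's list and a ratio of 1.84. Without peaks of q above 0.05 the shares were 60.2 and 84.1%, and with an overlap of 50% of the shorter peak replicate 2's was 79.1%. The median position was −128 bp with a window of 250 bp and −194 bp with 1000 bp, as the window itself sets it. The share of 6-base words called was 5.38% with the window of 250 bp, 1.73% against the outer flank, 26.1% against the gene-side flank and 18.4% with windows within 100 bp. Against the outer flank 4 motifs passed and the GC difference turned to 0.0597 points (−0.792 to 0.912), where the strongest quintile kept its direction.

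Among single motifs, lists and strength comparisons, 438 of 483 repeats kept direction and call, 24 lost the call, 20 gained it and 1 reversed: the ribosomal protein list was −1.02 points from the background in replicate 1's own list and 19.8 in replicate 2's. The cell cycle list lost its place above the background in both own lists, with a window of 250 bp, with the lone distance of 1000 bp and without peaks of q above 0.05. The fall of GC content with strength and the TATA and GAGA differences at bound TSSs kept their direction in every list and window run. Unknown depth, 2 replicates and no control library analysed limit all values.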

Other observations

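Outside the conservative list, each replicate's own list held further upstream peaks at lone promoters. Of 964 such peaks in replicate 1's list, 39 overlapped no conservative peak, and of 1498 in replicate 2's list, 229 overlapped none. Of the 39, 8 overlapped a peak of replicate 2's own list. The other thresholded list of the series held 1701, of which 246 overlapped no conservative peak.

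Of the members, 1181 (75.8%) had a width of exactly 396 bp, so width carried little information on the extent of binding. An opposite protein-coding TSS lay over 500 and up to 1000 bp upstream at 165 members, just beyond the distance that defined a lone promoter.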
